A study of Homo sapiens with 3 samples.

Results

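The 10 genes described here belong to the YAP and TEAD branch of transcription control. They are YAP1 and WWTR1, which encode the coactivators YAP and TAZ, the 4 DNA-binding factors TEAD1, TEAD2, TEAD3 and TEAD4, and 4 genes known as YAP and TAZ targets, CTGF, CYR61, ANKRD1 and AMOTL2. They were chosen by name, with no measured value in the rule, though earlier results of these data were known. They are 10 of the 32738 gene rows in the deposited tables. A UMI (a unique molecular identifier, which marks 1 captured RNA molecule) was found in called cells for 9 of the 10, and for 24023 of all gene rows. ANKRD1 was the exception.

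Single-cell RNA was sequenced from Kelly, an established human neuroblastoma cell line, in 3 states of response to TAE684, an inhibitor of the kinase ALK. Sensitive cells received DMSO, the vehicle. Intermediate resistant cells were grown in 500 nM TAE684 and fully resistant cells in 1 µM TAE684. Each state was represented by 1 library, so no test between states was possible, and state, drug dose and culture cannot be told apart. Intervals below are exact 95% intervals that cover counting error and nothing else.

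In the Hippo pathway, a kinase cascade restrains YAP and TAZ by phosphorylating them and holding them in the cytoplasm. YAP and TAZ that reach the nucleus do not bind DNA themselves and act through TEAD factors, which sit at a short DNA motif in promoters and enhancers. Cell shape, adhesion and actin tension feed into the cascade. In neuroblastoma, YAP is known as a gene of the mesenchymal rather than the adrenergic (sympathetic neuron-like) cell state.

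The promoters of 3 targets are shown because they carry a motif known for TEAD factors, and because the 3 genes were counted at very different levels. The motif searched was GGAATG and its reverse complement CATTCC, in the 250 bases before each start, and capitals mark the matches. The sequences are from RefSeq on the GRCh38.p14 build, each on the minus strand and printed 5′ to 3′.
CTGF promoter, chr6:131951373-131951622: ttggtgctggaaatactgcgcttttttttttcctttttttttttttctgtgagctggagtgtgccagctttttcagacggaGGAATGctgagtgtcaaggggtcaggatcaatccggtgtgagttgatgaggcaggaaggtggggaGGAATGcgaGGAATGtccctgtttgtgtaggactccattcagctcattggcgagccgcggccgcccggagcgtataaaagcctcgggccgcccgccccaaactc
ANKRD1 promoter, chr10:90921088-90921337: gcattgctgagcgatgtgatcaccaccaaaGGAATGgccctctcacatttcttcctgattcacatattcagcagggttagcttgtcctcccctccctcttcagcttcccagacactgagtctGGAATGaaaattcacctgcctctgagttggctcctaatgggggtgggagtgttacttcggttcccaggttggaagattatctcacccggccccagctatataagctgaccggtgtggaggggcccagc
AMOTL2 promoter, chr3:134374448-134374697: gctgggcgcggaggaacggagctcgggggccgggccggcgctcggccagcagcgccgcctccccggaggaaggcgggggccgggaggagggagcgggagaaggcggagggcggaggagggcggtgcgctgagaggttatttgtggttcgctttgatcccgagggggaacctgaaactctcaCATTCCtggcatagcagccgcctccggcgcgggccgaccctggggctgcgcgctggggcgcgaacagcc
CTGF held 3 matches, which began 169, 104 and 95 bases before the start. ANKRD1 held 2 matches, 220 and 128 bases before the start. AMOTL2 held 1 match, CATTCC at 69 bases before the start printed here, and none before the other of its annotated starts. Of 35116 RefSeq promoters of the same length, 11.9% held at least 1 match, 0.940% at least 2 and 0.0826% at least 3. Of the other members with an entry, YAP1 held 1 match at 162 bases before its start, and WWTR1, TEAD2 and TEAD3 held none in these windows. RefSeq entries were matched for 7 of the 10 members, without CYR61, TEAD1 and TEAD4. A match describes the letters and does not show that a factor binds there.

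The sensitive library had 5415 called cells, the intermediate resistant 6288 and the fully resistant 6331. They held 95119772, 102449567 and 106163582 UMIs in that order, at a median between 15660.5 and 16014 UMIs per cell. Mitochondrially encoded genes took 5.57%, 5.13% and 6.57% of these UMIs, and ribosomal protein genes took 36.6%, 39.5% and 33.5%. The 6 adrenergic markers reported (PHOX2A, HAND2, GATA3, ISL1, DBH and TH) were detected in every library, with a summed level of 1274, 2275 and 1409 CPM (UMIs of a gene per 1000000 UMIs in the library's called cells). The 10 mesenchymal-state markers summed to 102, 84.1 and 107 CPM, with TWIST1 the highest in each, and PRRX1 had 0 UMIs in both resistant libraries. Leukocyte and endothelial markers summed to below 1 CPM in each library. The 5 fibroblast markers summed to 2.79, 9.36 and 7.18 CPM in the same order. Between 38 and 62 cell barcodes were shared by each pair of libraries, and doublets were kept.

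The coactivators were scarce. YAP1 had 48 UMIs in the sensitive library, 2 in intermediate resistant cells and 4 in fully resistant cells. This came to 0.505 CPM (0.372 to 0.669), 0.0195 CPM (0.00236 to 0.0705) and 0.0377 CPM (0.0103 to 0.0965) in that order. The sensitive interval lay above both others, and no cell in any library held more than 1 YAP1 UMI. The YAP1 level was 13.4-fold lower in the fully resistant than in the sensitive library (4.90 to 51.1), and 25.8-fold lower in the intermediate resistant than in the sensitive library (6.78 to 220). YAP1 stayed under the minimum of 1 CPM set for counting a gene as higher or lower, so it is in none of the counts below.

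WWTR1 had 4, 8 and 12 UMIs in the sensitive, intermediate resistant and fully resistant libraries, or 0.0421, 0.0781 and 0.113 CPM. The intervals of the 3 libraries overlapped. For scale, the 8 leukocyte and endothelial markers measured, which a neuroblastoma line should lack, had at most 27 UMIs each in sensitive cells, 52 in intermediate resistant cells and 58 in fully resistant cells. WWTR1 in every library, and YAP1 in both resistant libraries, lay within that background, and YAP1 in the sensitive library lay above it. That background leaves out the 4 epithelial markers, which summed to 0.999 CPM in sensitive, 1.49 CPM in intermediate resistant and 0.716 CPM in fully resistant cells.

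**Figure D1:**
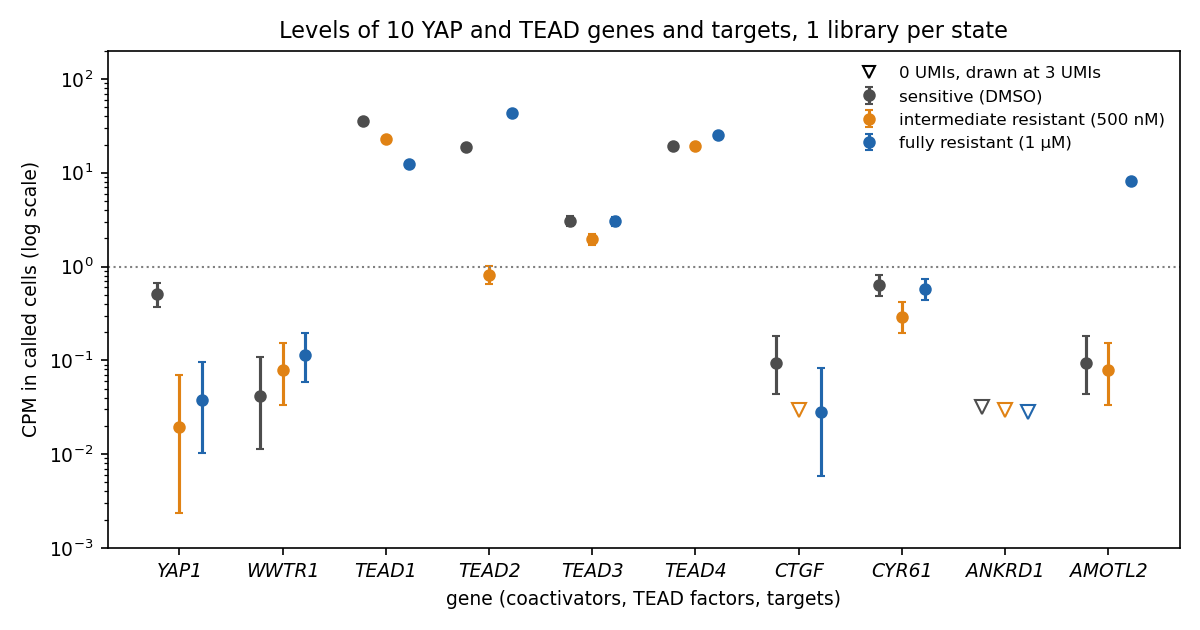
CPM of each of the 10 genes in called cells on a log axis, by library, with exact Poisson 95% intervals from counting alone. Open triangles mark genes with 0 UMIs, drawn at 3 UMIs, and the dotted line is the minimum of 1 CPM. TEAD1, TEAD3 and TEAD4 lie above the line in every library, TEAD2 in all but the intermediate resistant library and AMOTL2 in the fully resistant library alone.

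The TEAD factors supplied most of the UMIs of the 10 genes in each library, and TEAD1 and TEAD2 had different orders over the libraries. TEAD1, a broadly expressed member, stood at 35.6 CPM (34.4 to 36.8) in the sensitive library, 22.6 CPM (21.7 to 23.6) in the intermediate resistant and 12.3 CPM (11.6 to 12.9) in the fully resistant. The 3 intervals did not overlap, and the level was lower at each higher dose. TEAD1 was 2.90-fold lower in the fully resistant than in the sensitive library (2.72 to 3.10) and 1.57-fold lower in the intermediate resistant than in the sensitive library (1.49 to 1.66).

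TEAD2, known from embryonic and neural progenitor tissue in the mouse, had a different order. Its level was 18.9 CPM (18.1 to 19.8) in the sensitive library, 0.810 CPM (0.645 to 1.00) in the intermediate resistant and 43.2 CPM (41.9 to 44.4) in the fully resistant. The intermediate resistant library was thus the lowest of the 3 and the fully resistant the highest, with no overlap. TEAD2 was 23.4-fold lower in the intermediate resistant than in the sensitive library (18.8 to 29.5), and 34 of 12751 genes, TEAD2 included, had a ratio as low there. In fully resistant cells it was 2.28-fold higher than in sensitive cells (2.16 to 2.41), and 53.3-fold higher than in intermediate resistant cells (42.9 to 67.0).

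TEAD4, a member known from trophectoderm and muscle, differed less. It had 19.1 CPM (18.2 to 20.001) in the sensitive library, 19.1 CPM (18.2 to 19.9) in the intermediate resistant and 25.5 CPM (24.6 to 26.5) in the fully resistant. The ratio of intermediate resistant to sensitive was 0.998 (0.936 to 1.06), and that of fully resistant to sensitive was 1.34 (1.26 to 1.42), below the 1.5-fold used to count a gene. TEAD3, known from placenta, was the lowest of the 4, at 3.06 CPM (2.72 to 3.43), 1.95 CPM (1.69 to 2.24) and 3.05 CPM (2.73 to 3.403). Its fully resistant and sensitive levels had a ratio of 0.998 (0.849 to 1.17), and its intermediate resistant level was 1.57-fold lower than the sensitive one (1.30 to 1.89). Both TEAD3 calls against the intermediate resistant library lay close to the 1.5-fold limit. So did the TEAD1 call of intermediate resistant against sensitive, at 1.57-fold lower (1.49 to 1.66). That TEAD1 call held over the alternatives tried, at log2 ratios between −0.656 and −0.59. With cells thinned to 5000 UMIs, the TEAD3 log2 ratio of intermediate resistant to sensitive was −0.33, which ended that TEAD3 call.

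**Figure D2:**
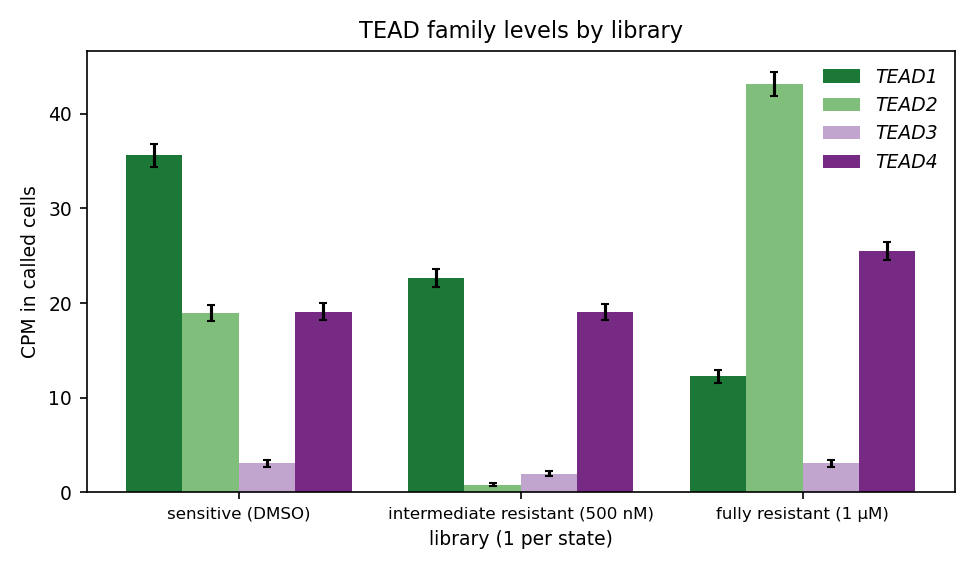
CPM of TEAD1 to TEAD4 in called cells by library, 1 library per state, with exact Poisson 95% intervals. TEAD1 leads in the sensitive library at 35.6 CPM, TEAD2 is nearly missing from the intermediate resistant library at 0.810 CPM and leads in the fully resistant library at 43.2 CPM.

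Summed over the family, the 4 TEAD genes gave 76.7 CPM (74.9 to 78.5) in the sensitive library, 44.5 CPM (43.2 to 45.8) in the intermediate resistant and 84.0 CPM (82.2 to 85.7) in the fully resistant. In fully resistant cells the sum was 1.10-fold that of sensitive cells (1.06 to 1.13), although its makeup differed. TEAD1 supplied 46.4% of the family's UMIs in the sensitive library, 50.9% in intermediate resistant cells and 14.6% in fully resistant cells. TEAD2 supplied 24.7%, 1.82% and 51.4% in the same order, and TEAD4 supplied 24.9%, 42.9% and 30.4%. TEAD1 thus led in the sensitive and intermediate resistant libraries and TEAD2 in the fully resistant. Each UMI stands for 1 molecule tagged near its 3′ end, so CPM needs no division by length, but capture per transcript was not measured and shares are best read across libraries.

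At a fixed depth of 5000 UMIs per cell, at least 1 TEAD UMI was found in 30.9% of the sensitive cells, 19.3% of the intermediate resistant ones and 34.5% of the fully resistant ones. TEAD1 was found in 15.5%, 10.3% and 5.83% of cells in that order (42.3%, 28.4% and 17.4% before thinning). TEAD2 was found in 9.03%, 0.429% and 19.7% of cells (24.97%, 1.18% and 46.8% before thinning). TEAD4 was found in 8.77%, 8.60% and 12.3% (27.6%, 25.05% and 33.0% before thinning). The shares of cells kept the order of the CPM for TEAD1 and TEAD2. Free RNA, read from barcodes with 1 to 100 UMIs, could supply at most 0.218 CPM of any member if each cell took in 100 such UMIs.

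The TEAD2 remainder in the intermediate resistant library was 83 UMIs in 74 cells, of which 8 cells held more than 1. None of the 74 barcodes (0) was among the 94 that this library shared with the others. ARHGAP36, found in 90.4% of that library's other cells, was found in 93.2% of these 74, and SST was found in 87.8% against 88.2%. These 2 genes were picked after their values were seen, as common genes of that library. The free RNA of the intermediate resistant library held 0 TEAD2 UMIs.

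Of the targets, AMOTL2 alone reached 1 CPM, in the fully resistant library, and CTGF and ANKRD1 had too few UMIs to give an order. AMOTL2, which encodes a junction protein that binds YAP and holds it back, had 9 UMIs in the sensitive library, 8 in intermediate resistant cells and 870 in fully resistant cells. Its level was 0.0946 CPM (0.0433 to 0.180), 0.0781 CPM (0.0337 to 0.154) and 8.19 CPM (7.66 to 8.76) in that order. AMOTL2 was therefore within the background of the leukocyte and endothelial markers in the sensitive and intermediate resistant libraries, and well above it in the fully resistant. In fully resistant cells it was 86.6-fold higher than in sensitive cells (45.4 to 190), and 74 of 12988 genes, AMOTL2 included, had a ratio as high. Against the intermediate resistant library it was 105-fold higher in the fully resistant (53.0 to 244).

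At 5000 UMIs per cell, AMOTL2 was found in 3.68% of fully resistant cells, against 0.0185% of sensitive cells (11.6% and 0.148% before thinning). The 737 fully resistant cells with a UMI held at most 5 each. The variance of its thinned counts was 1.02 times the mean, against a median of 1.04 for genes of at least 20 CPM in that library. At a level this low, that ratio stays near 1 unless a few cells hold most of the UMIs.

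CYR61, a secreted matrix protein also named CCN1, stood at 0.631 CPM (0.481 to 0.812; 60 UMIs) in the sensitive library. It had 0.293 CPM (0.198 to 0.418; 30 UMIs) in intermediate resistant and 0.575 CPM (0.440 to 0.738; 61 UMIs) in fully resistant cells. The intermediate resistant interval lay below both others, within the marker background, and the fully resistant to sensitive ratio was 0.911 (0.627 to 1.32). CTGF, its relative also named CCN2, had 9 UMIs in 2 sensitive cells, 0 UMIs in the intermediate resistant library and 3 UMIs in the fully resistant. ANKRD1, a muscle ankyrin repeat protein, had 0 UMIs in all 3 libraries, which at a floor of 3 UMIs per library is 0.0315, 0.0293 and 0.0283 CPM, with exact upper limits of 0.0388, 0.0360 and 0.0347 CPM. The CTGF and ANKRD1 promoters held the most motif matches of the 3 printed, while their transcripts were at or near 0 in all 3 libraries.

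One sensitive cell, picked after its values were seen, carried most of the CTGF and part of the CYR61 signal. It held 9479 UMIs over 2605 genes, among them 8 of the library's 9 CTGF UMIs, 11 of 60 CYR61 UMIs and 2 of 9 AMOTL2 UMIs. It also held 10 of the library's 21 UMIs of EDN1 (endothelin, a secreted peptide), and 20 UMIs of VIM (vimentin) against 0.594 for a cell of its depth at the library's mean. Of the 10 mesenchymal-state markers it held 3, with 5 UMIs of COL1A1, 3 of COL3A1 and 2 of LUM, and it had 0 of PRRX1, FN1, COL1A2, TWIST1, SNAI2, CD44 and THY1. Of those at 0, TWIST1 had the highest count at the library's mean, 0.617 for a cell of this depth. Of the 6 adrenergic markers it held 4 UMIs of GATA3, 1 of ISL1 and 1 of HAND2, where 2.61, 0.814 and 3.51 would be held at the library's mean. It had 0 of PHOX2A, DBH and TH, where 3.26, 1.45 and 0.433 would be held at that mean. It held 3 UMIs of MYCN against 11.8 at that mean, and 0 of YAP1, WWTR1 and all 4 TEAD genes. That mean gives 0.337 UMIs of TEAD1, 0.179 of TEAD2, 0.0290 of TEAD3 and 0.181 of TEAD4, and less of YAP1 and WWTR1. A count of 0 for each is therefore uninformative at this depth. Without this cell, the sensitive library had 1 CTGF UMI, 0.0105 CPM, and 0.515 CPM of CYR61 (0.381 to 0.681). The CYR61 interval then overlapped that of the intermediate resistant library.

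A gene was counted where 1 of the paired libraries reached 1 CPM, and called higher or lower from 1.5-fold on. On that rule 5 of the 10 genes could be counted in fully resistant against sensitive cells. TEAD2 and AMOTL2 were higher and TEAD1 lower, against 17.5% of 12988 genes higher and 17.4% lower, or 34.9% either way. The median log2 ratio of all these genes was 0.07. Their split depended on the scaling, at 2279 higher and 2257 lower as reported and 1903 higher and 2599 lower under TMM scaling. TEAD1 and TEAD2, at log2 ratios of −1.54 and 1.19, lay inside the central 90% of genes, and AMOTL2, at 6.44, lay far outside it.

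In intermediate resistant against sensitive cells, 4 genes could be counted. TEAD1, TEAD2 and TEAD3 were lower and none was higher (0), against 14.4% of 12751 genes lower and 8.71% higher, or 23.1% either way. In fully against intermediate resistant cells, TEAD2, TEAD3 and AMOTL2 were higher and TEAD1 lower, of 5 counted, against 16.3% of 12880 genes higher and 11.0% lower, or 27.3% either way. There too the split of all genes moved with the scaling. It was 2094 higher and 1423 lower as reported, at a median log2 of 0.14, and 1533 higher and 1813 lower under TMM scaling, at a median of −0.01. TEAD3 dropped below 1.5-fold under that scaling, and the TEAD1, TEAD2 and AMOTL2 calls held.

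**Figure D3:**
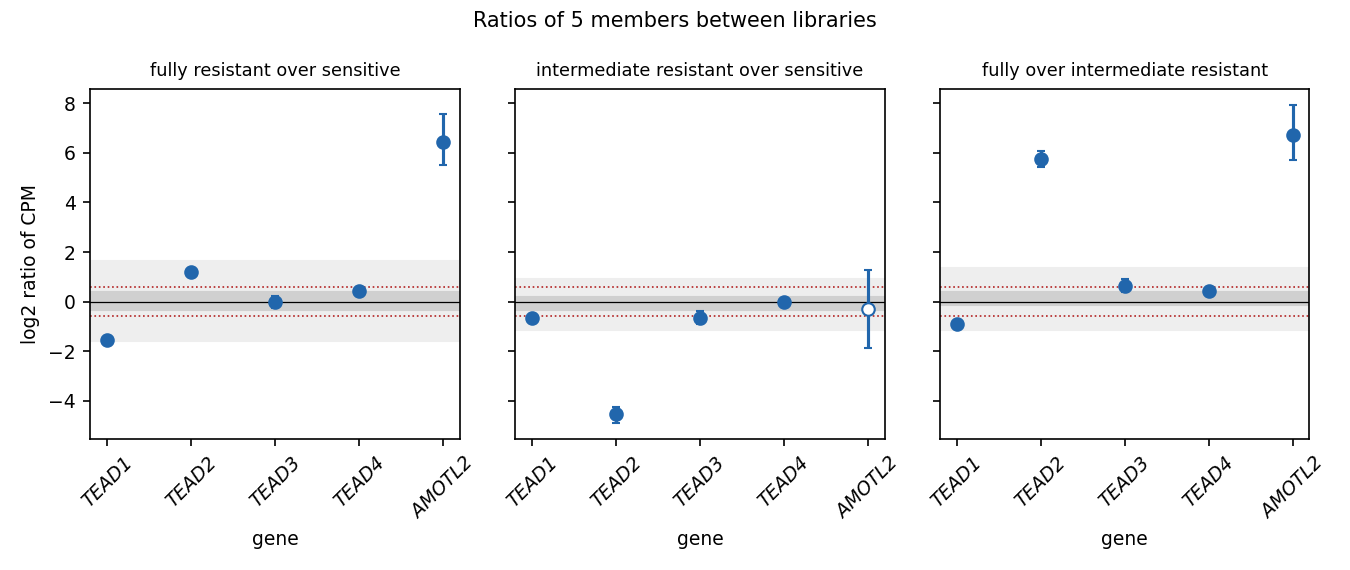
Log2 ratio of CPM for the 4 TEAD genes and AMOTL2 in each comparison, with exact conditional Poisson 95% intervals. Dark and light grey bands hold the central 50% and 90% of all genes with at least 1 CPM, dotted lines mark 1.5-fold, and the open circle is a gene under 1 CPM in both libraries. TEAD2 leaves the light band in the middle and right panels, and AMOTL2 in the left and right panels.

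Of 15 countable genes in the kinase cascade that acts on YAP and TAZ, 2 were higher and 3 lower in fully resistant against sensitive cells, about the share of all genes (17.5% higher, 17.4% lower). Their median log2 ratio was 0.04, against 0.07 for all genes. STK4, an upstream kinase of the cascade, had 59.0 CPM in the fully resistant and 31.9 CPM in the sensitive library. MAP4K4, a parallel activator of the LATS kinases, had 50.9 CPM against 23.4 CPM, while its relative MINK1 had 3.92 CPM against 8.56 CPM. LATS1, the kinase that phosphorylates YAP, was lower, at 5.56 against 8.59 CPM. In intermediate resistant against sensitive cells 1 of 15 was higher and 1 lower, against 8.71% and 14.4% of all genes.

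Of 18 countable upstream and junction genes, 6 were higher and 2 lower in fully resistant against sensitive cells, at a median of 0.15, against 17.5% and 17.4% of all genes and a median of 0.07. FRMD6, a scaffold protein, had 5.26 CPM against 2.26 CPM, and CTNNA1, the alpha-catenin of adherens junctions, had 43.2 CPM against 21.9 CPM. LIMD1, a LIM protein that inhibits LATS kinases, was lower, at 3.51 against 7.06 CPM. In intermediate resistant against sensitive cells 1 of 17 was higher and 3 were lower (8.71% and 14.4% of all genes), among them WWC1 (the scaffold KIBRA), at 2.45 against 6.35 CPM. VGLL4, a TEAD cofactor that competes with YAP, had 21.6 CPM in the fully resistant and 23.8 CPM in the sensitive library. The intermediate resistant library had 15.5 CPM of VGLL4, 1.54-fold lower than the sensitive one.

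The other 18 genes of a published YAP and TAZ target signature summed to 257 CPM in the fully resistant and 196 CPM in the sensitive library. Of 12 countable genes, 4 were higher and 2 lower (17.5% and 17.4% of all genes), at a median log2 ratio of 0.01 against 0.07 for all genes. F3 (tissue factor) had 6.22 CPM against 0.936 CPM, and GADD45A, a stress response gene, had 99.3 CPM against 56.1 CPM. CCDC80, a matrix protein, was lower, at 4.18 against 13.8 CPM.

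In the intermediate resistant library the same signature summed to 125 CPM, against 196 CPM in the sensitive. Of 10 countable genes 5 were lower and 1 was higher (14.4% and 8.71% of all genes), at a median log2 ratio of −0.60, against −0.07 for all genes. CCDC80 had 0.771 CPM there against 13.8 CPM, 17.8-fold lower, and GADD45A had 26.8 CPM against 56.1 CPM. In fully against intermediate resistant cells 6 of 12 were higher and 1 was lower (16.3% and 11.0% of all genes), at a median of 0.90, against 0.14 for all genes. RBMS3, an RNA-binding protein, had 36.4 CPM against 14.4 CPM. These last comparisons share the intermediate resistant library.

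Of 13 countable actin and serum response factor genes, 0 were higher and 5 lower in fully resistant against sensitive cells (17.5% and 17.4% of all genes), at a median of −0.47 against 0.07 for all genes. Tropomyosin TPM4 had 32.7 CPM against 53.5 CPM, and MKL1, the actin-regulated coactivator of that factor, had 4.26 CPM against 7.002 CPM. In intermediate resistant against sensitive cells 0 were higher and 4 lower (8.71% and 14.4% of all genes), at a median of −0.32 against −0.07. Of 9 countable immediate early genes, 2 were higher and 4 lower in fully resistant against sensitive cells, again beside 17.5% and 17.4% of all genes. IER2 had 58.9 CPM against 28.9 CPM, and FOSL2, an AP-1 subunit, had 2.73 CPM against 8.76 CPM. None of the other CCN genes (0 of 4) reached 1 CPM in any library.

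The genes on either side of the members were examined to see whether a stretch of chromosome moved together. Around TEAD2 on chromosome 19, the 20 nearest measured genes had a median log2 ratio of −0.13 in intermediate resistant against sensitive cells (−1.33 to 0.25), while TEAD2 had −4.55. Around AMOTL2 on chromosome 3, the median was 0.13 in fully resistant against sensitive cells (−0.71 to 0.81), while AMOTL2 had 6.44. In these comparisons TEAD2 and AMOTL2 lay outside the range of their neighbours. In fully resistant against sensitive cells TEAD2, at 1.19, lay inside that range (−1.67 to 2.69) only through its highest neighbour. The next highest neighbour had 0.60, and the neighbours' median was −0.12. Around TEAD1 on chromosome 11, the median was 0.20, and TEAD1, at −1.54, lay inside the range only through its lowest neighbour. The next lowest neighbour had −1.05. The lowest was PARVA, the measured gene next to TEAD1, which encodes an adhesion and actin-binding protein. PARVA had 0.151 CPM in the fully resistant and 5.83 CPM in the sensitive library, a log2 ratio of −5.27.

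**Figure D4:**
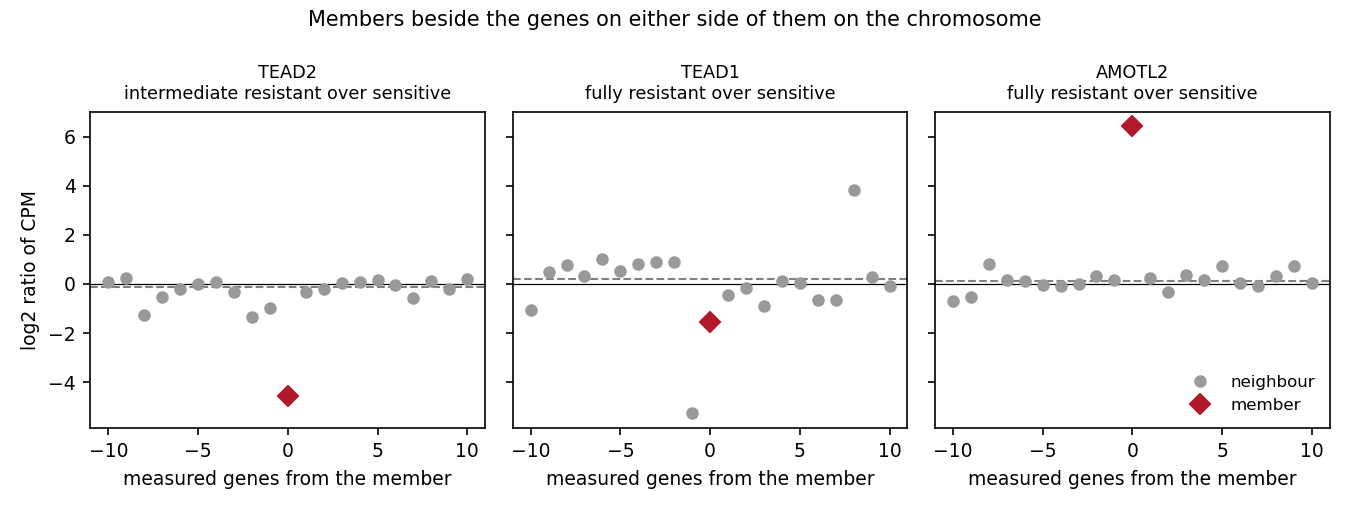
Log2 ratio of CPM for TEAD2, TEAD1 and AMOTL2 (diamonds) and for the 10 nearest measured genes on each side (circles), in gene order along the chromosome. The dashed line is the neighbours' median, and in the comparisons plotted TEAD2 and AMOTL2 stand outside the range of their neighbours while TEAD1, with PARVA at −5.27 beside it, does not. PARVA alone lies below TEAD1, and the next lowest neighbour is at −1.05.

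Within the libraries, cells were split by markers, as descriptions without a test. A VIM UMI was held by 42.1% of the sensitive cells, 4.58% of the intermediate resistant ones and 3.95% of the fully resistant ones. VIM is a gene of the mesenchymal state. YAP1 in sensitive cells stood at 0.826 CPM (0.578 to 1.14; 36 UMIs) in cells with a VIM UMI, against 0.233 CPM (0.120 to 0.407; 12 UMIs) in cells without. The 2 intervals did not overlap. A deeper cell is more likely to show any gene, and in cells thinned to 5000 UMIs the values were 1.23 CPM (0.496 to 2.54) with 7 UMIs, against 0.187 CPM (0.0509 to 0.478) with 4 UMIs. These VIM splits in whole cells were added after the data had been seen.

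CYR61 in sensitive cells had 0.940 CPM with VIM, against 0.369 CPM (0.222 to 0.576) without. Leaving out the single cell described above, the level with VIM was 0.688 CPM (0.464 to 0.983), so that the intervals then overlapped. In whole cells TEAD1 had 38.0 CPM (36.2 to 39.9) with VIM, against 33.6 CPM (32.0 to 35.2) without, and TEAD2 had 20.5 CPM (19.1 to 21.8) against 17.6 CPM (16.5 to 18.8), both with intervals apart. TEAD3 had 3.46 against 2.72 CPM and TEAD4 had 19.2 against 19.04 CPM, with overlapping intervals. In thinned cells the TEAD1 and TEAD2 intervals overlapped, with TEAD2 at 19.2 CPM with VIM and 19.6 CPM without. In whole sensitive cells, 29 of the 47 with CYR61 held VIM (61.7%, 46.4% to 75.5%), against 42.1% of all cells. The intermediate resistant library had 3 of 30 (10.0%, 2.11% to 26.5%), against 4.58%. The fully resistant library had 1 of 60 (1.67%, 0.0422% to 8.94%), against 3.95%. In both resistant libraries the interval held the share of all cells.

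A G2/M score, the summed UMIs of 15 mitotic genes, split each library's cells into tertiles, with 9.84% to 11.5% of cells sitting exactly at a limit and placed at random. AMOTL2 in fully resistant cells had 4.93 CPM (3.68 to 6.46) in the lowest tertile, 6.54 CPM (5.09 to 8.28) in the middle and 11.2 CPM (9.26 to 13.4) in the highest. TEAD2 in the same cells ran the other way at the top, with 48.2, 49.7 and 36.5 CPM (32.9 to 40.3). TEAD1 was highest in the highest tertile of every library, at 39.0 CPM (sensitive), 26.6 CPM (intermediate resistant) and 14.4 CPM (fully resistant), with intervals clear of the lowest tertile in the intermediate resistant library only. TEAD4 in the intermediate resistant library was highest in the middle tertile, at 26.1 CPM (23.1 to 29.4), against 12.5 CPM in the lowest and 16.9 CPM in the highest. In the fully resistant library TEAD4 was also highest in the middle tertile, at 30.8 CPM (27.5 to 34.3), against 20.3 CPM (17.6 to 23.2) in the lowest. The highest tertile there had 28.2 CPM (25.1 to 31.6), which overlapped the middle. Sensitive cells had most TEAD4 in the highest tertile, at 20.4 CPM. Within each tertile, TEAD1 and TEAD2 kept the order of the libraries seen over all cells.

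**Figure D5:**
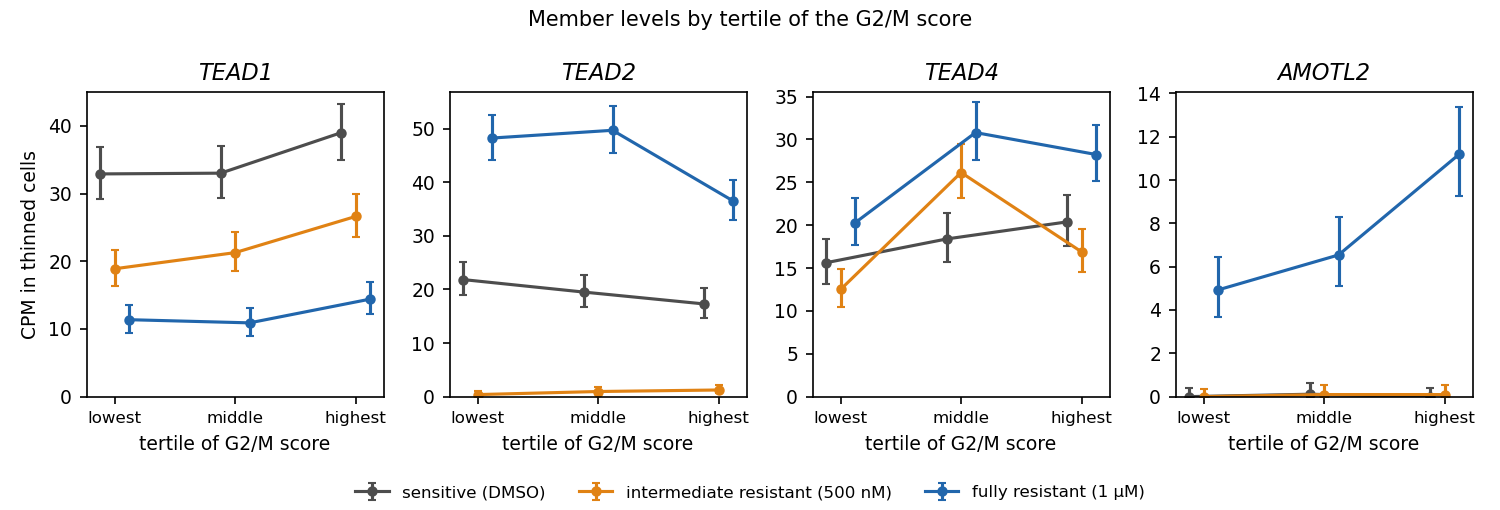
CPM of TEAD1, TEAD2, TEAD4 and AMOTL2 in cells thinned to 5000 UMIs, by tertile of the G2/M score in each library, with exact Poisson 95% intervals. In fully resistant cells AMOTL2 goes up over the tertiles to 11.2 CPM, while TEAD2 is lowest in the highest tertile at 36.5 CPM.

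Among all genes, the 3 that ran most like TEAD1 over cells were CENPF, MALAT1 and KCNQ1OT1 in the sensitive library and CENPF, KPNA2 and ASPM in the intermediate resistant, with Pearson r of at most 0.0694 over 5415 cells and 0.0767 over 6288 cells. For TEAD2 in fully resistant cells they were SAMD11, MDK and SRSF7 (r of at most 0.0629 over 6331 cells), and for TEAD4 they were CARHSP1, SRSF2 and RABIF (at most 0.0732). Correlations this weak in sparse counts are no finding, and they share library and depth. AMOTL2 in fully resistant cells ran most like NEUROD1, a neuronal transcription factor, at r = 0.118. It was outside the naming rule, which asks for 20 CPM.

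Split by a NEUROD1 UMI, fully resistant cells had 13.6 CPM of AMOTL2 (11.2 to 16.2) in the 1726 cells with NEUROD1, against 5.30 CPM (4.40 to 6.33) in the 4605 cells without. NEUROD1 was taken for its correlation with AMOTL2 in these same cells, so the split restates that value in CPM and adds no support to it. TEAD2 had 46.5 against 44.2 CPM in the same split, and TEAD1 had 13.8 against 11.6 CPM, with overlapping intervals. The NEUROD1 and G2/M splits were not separate. NEUROD1 was found in 21.9%, 28.7% and 31.2% of cells in the lowest, middle and highest tertile. With NEUROD1, AMOTL2 had 6.49 CPM (3.63 to 10.7), 11.2 CPM and 20.6 CPM (16.0 to 26.2) in that order. Without NEUROD1 it had 4.49 CPM (3.16 to 6.19), 4.65 CPM and 6.89 CPM (5.12 to 9.09), with overlapping intervals.

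Detection of members in the same cells was compared at 5000 UMIs per cell. In fully resistant cells, TEAD2 was found in 14.6% (10.3% to 19.8%) of cells with AMOTL2, against 19.9% (18.9% to 20.9%) of cells without. TEAD4 ran the other way, in 16.7% (12.2% to 22.2%) of cells with AMOTL2, against 12.2% (11.4% to 13.01%) of cells without. TEAD4 was found in 13.6% (11.7% to 15.6%) of cells with TEAD2, against 12.04% (11.2% to 13.0%) of cells without. In the sensitive library TEAD2 was found in 7.77% (6.04% to 9.79%) of cells with TEAD1, against 9.26% (8.44% to 10.1%) of cells without. The intervals overlapped in each of these pairs.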

How the data were processed

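The deposited tables hold UMI counts per gene and barcode, unnormalized and with unfiltered barcodes. The submitters' processing notes name bcl2fastq, Cell Ranger and hg19, without versions, and the labels name 10x Genomics 3′ v2 chemistry. Of the per-sample columns, 0 were left unused. Groups came from the labels.

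Barcodes with at least 5000 UMIs, at least 500 genes and at most 20% mitochondrial UMIs were called cells. Doublets were kept and no caller was run. UMIs were summed over cells per library and scaled to CPM. Exact Poisson, conditional Poisson (ratios) and Clopper-Pearson (shares) intervals cover counting error only; UMIs and cells of 1 library are not replicates. Because each state had 1 library, differences between states were not tested. Calls rest on size: at least 1 CPM in either library and at least 1.5-fold; 0 UMIs were set to a floor of 3 UMIs. Shares of cells used cells thinned at random to 5000 UMIs, which leaves no cell out.

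The members, gene lists and tests were chosen with earlier results of these data known. Named genes were all members, up to 3 genes per list and comparison with the greatest absolute log2 ratio and at least 5 CPM, and, for members at 20 CPM or more, the 3 genes with the highest correlation over cells; LATS1, EDN1, PARVA, NEUROD1, ARHGAP36 and SST and the genes of the single sensitive cell were added after their values were seen. Gene order for neighbours came from the RefSeq GRCh38.p14 gene table, which matched 20750 of 32738 rows; no hg19 coordinates are given. The steps were tested on simulated data. Alternatives were TMM factors (edgeR 4.0.16), median-of-ratios factors (DESeq2 1.42.0), in R 4.3.3, totals without mitochondrial and ribosomal genes, other cell rules, thinning and other CPM limits. Python 3.11.15, numpy 2.4.6, scipy 1.17.1 and pandas 2.3.3 were used. Some cell type markers are not reported here.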

Additional observations from a re-analysis of the deposited data

How the results depend on the processing

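No paired analysis was possible because each state had 1 library, and for the same reason no library could be left out. Over 218 alternative values of the members' log2 ratios, 0 changed the direction of a gene counted as higher or lower, and 202 moved by less than their counting interval. Without a minimum CPM, 6 genes were past 1.5-fold in fully resistant against sensitive cells (3 higher, 3 lower) and 7 in intermediate resistant against sensitive cells (1 higher, 6 lower), against 3 and 3 as reported, because genes with a few UMIs then counted. Of all genes, 4677 were then higher and 3981 lower in the first comparison, and 3349 higher and 3361 lower in the second. TEAD3 dropped below the limit in fully against intermediate resistant cells under TMM, median-of-ratios scaling, totals without mitochondrial and ribosomal genes, thinning and a 5 CPM minimum, leaving 3 genes rather than 4. Over these settings 1330 to 2130 of all genes were higher and 782 to 1976 lower, against 2094 and 1423 as reported. The log2 ratio of AMOTL2 in fully resistant against sensitive cells ran between 6.19 and 7.68, since the sensitive level rests on 9 UMIs. The YAP1 ratio in the same comparison reached −4.06. In thinned cells it was a bound of −2.10, since 11 sensitive UMIs were set against the floor of 3 for 0 fully resistant UMIs. Depth limits all levels that rest on a few UMIs, those of YAP1, WWTR1, CTGF and AMOTL2 among them, since 3 UMIs are 0.0283 to 0.0315 CPM.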
